A study of Mus musculus with 8 samples.

Results

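The genes described here encode platelet-derived growth factors (PDGFs) and their receptors: the ligand genes Pdgfa, Pdgfb and Pdgfc and the receptor genes Pdgfra and Pdgfrb. Members were all probe sets (groups of short probes for a transcript on an Affymetrix array) whose only annotated symbol was one of these genes. This gave 6 of the 12488 probe sets of the table, for 4 of the 8251 genes named in it. Pdgfa (94932_at), Pdgfb (99890_at) and Pdgfrb (160867_at) each had 1 probe set and Pdgfra had 3. Pdgfc had none under its own symbol and was not analysed here.

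The study set the tips of secondary alveolar septa against whole lung in C57/Bl6 mice at postnatal day 6. The tips, 10000 in number, were cut by laser capture from frozen sections of lungs of many neonates, and the whole lung RNA came from pooled lungs of the same age. This was done in experiment 1 and again in experiment 2 with other litters, and each RNA went onto 2 arrays, so that 8 arrays held 4 RNA samples, 2 per group. No genotype or treatment is named in the labels of either group. Titles decided the groups, since the tip samples carry a description that speaks of whole lung. The labels name amplification with a RiboAmp kit for every tip array but, among lung arrays, only for array 1 of experiment 1, whereas the study's design has lung and tip RNA amplified side by side.

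PDGF ligands are secreted dimers that bind and pair receptor tyrosine kinases on neighbouring cells. In the developing lung, PDGF-A from epithelium acts through PDGF receptor alpha on mesenchymal precursors of the alveolar myofibroblasts, the contractile, elastin-making cells of the septal tip. PDGF-B is made chiefly by endothelium and acts through PDGF receptor beta on pericytes, the mural cells of capillaries, while PDGF-C is a further ligand of the alpha receptor.

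Signals are in arbitrary units on a linear scale. Differences are in log2 of the signal plus an offset of 150.1, tips minus lung, which understates the differences of dim probe sets. Errors after ± are the standard error for differences and the SD over the 2 RNA samples of a group for signals. Background on each array was the 95th percentile of 19 probe sets that read bacterial or yeast RNA and serve as controls. It lay between 314.1 and 568.1 on lung arrays and between 486.6 and 1244.2 on tip arrays, highest on array 2 of experiment 1. The median signal was 501 to 572 on lung arrays and 787 to 924 on tip arrays, and the median difference over the 7453 probe sets tested was 0.35. The signal from the middle of the Gapdh transcript, relative to that from its 3′ end, was 0.933 to 1.26 on lung arrays and 0.368 to 0.588 on tip arrays. The same ratio for beta-actin was 0.0404 to 0.0605 on lung arrays and 0.0806 to 0.108 on tip arrays. What these differences between the arrays contribute to the values below was not tested.

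**Figure D1:**
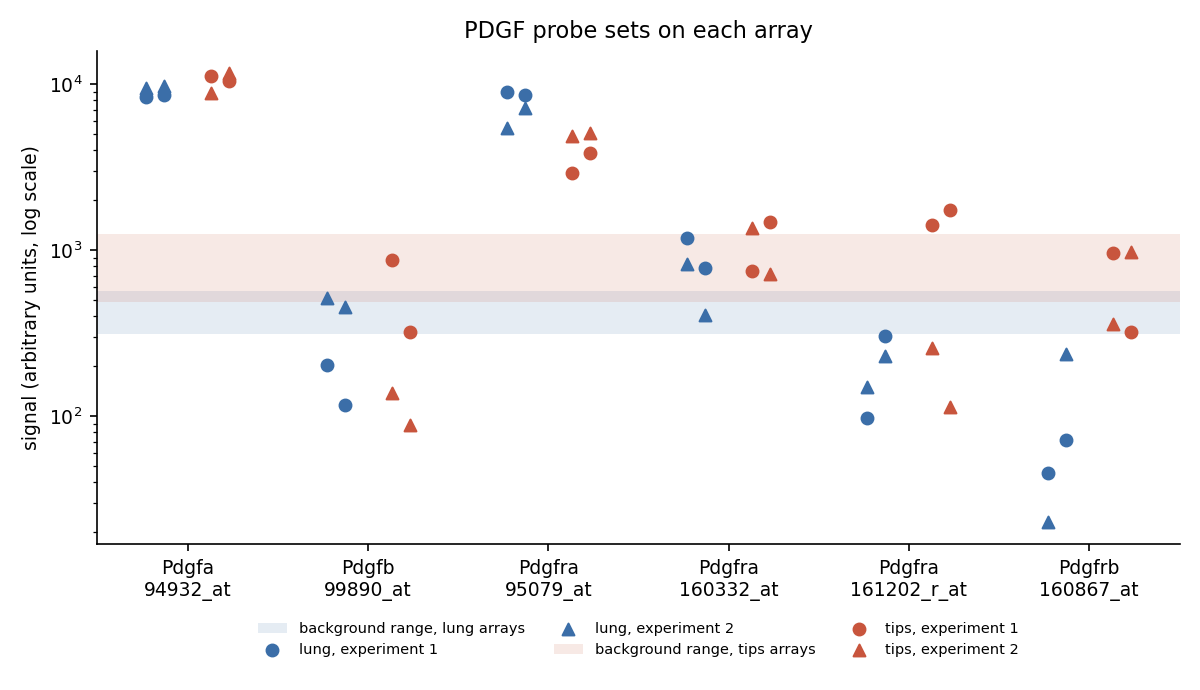
Signal (arbitrary units, log scale) of each PDGF probe set on each of the 8 arrays; circles are experiment 1, triangles experiment 2, and the shaded bands are the range of background over the arrays of each tissue. The Pdgfa probe set and probe set 95079_at of Pdgfra lay above both bands on every array, and the others lay in or under a band on some or all arrays.

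Pdgfa, the ligand of the alpha receptor, was bright in both tissues, and its difference between them did not pass the test. On lung arrays its signal was 8338.6 and 8646.1 in experiment 1 and 9424.2 and 9719.1 in experiment 2. On tip arrays it was 11197.1 and 10485.6 in experiment 1 and 8819.4 and 11639.2 in experiment 2. All 8 values were far above background, and 3 of 4 array pairs were higher in tips, with the tip array 1 of experiment 2 inside the lung range.

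The mean signal of Pdgfa was 9032 ± 763.2 (SD, n = 2) in lung and 10540 ± 432.8 (SD, n = 2) in tips. The difference was 0.21 ± 0.29 with a 95% interval from -0.44 to 0.86 (limma adjusted p = 0.592). It was 0.35 in experiment 1 and 0.08 in experiment 2, and the interval spans changes of both signs. The percentile of Pdgfa among all probe sets of its array was 94.5 to 95.4 on lung arrays and 96.3 to 97.8 on tip arrays, without overlap. The 95th percentile of signal was itself 9009 to 9243 on lung arrays and 6218 to 6845 on tip arrays. A signal of equal size in that range therefore ranked higher on a tip array. How many of all probe sets separated by percentile was not counted. The direction of the difference depended on how arrays were brought to a common scale. With arrays centred on their medians the difference was -0.33 (limma adjusted p = 0.503), and with quantile normalization, which gives all arrays one distribution, it was 0.78 (limma adjusted p = 0.0977).

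Pdgfb, the ligand of the beta receptor, was at or near background in both tissues. Its signal in lung was 203.6 and 116.5 in experiment 1 and 512.6 and 456.1 in experiment 2. In tips it was 877.2 and 323.2 in experiment 1 and 138.6 and 87.8 in experiment 2. It exceeded background on 1 of 4 lung arrays and 1 of 4 tip arrays, and the order of the tissues turned between the experiments.

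The difference of Pdgfb was 1.18 in experiment 1 and -1.27 in experiment 2. Since its mean level was under the filter on dim probe sets (the 40th percentile), it was tested only in the fit without that filter, where the difference was -0.05 ± 0.60 with an interval from -1.40 to 1.31 (limma adjusted p = 0.962). The interval spans differences of more than 1 in either direction.

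Pdgfra, the receptor that marks the mesenchymal precursors, had 3 probe sets that differed from each other. The brightest, 95079_at, was lower in tips on every array. Its lung signal was 8923.8 and 8569.4 in experiment 1 and 5420.6 and 7147.1 in experiment 2. Its tip signal was 2904.3 and 3833.8 in experiment 1 and 4875.5 and 5079.5 in experiment 2. The highest tip value lay under the lowest lung value, and all 8 values were above background.

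The mean signal of this probe set was 7515 ± 1741 (SD, n = 2) in lung and 4173 ± 1137 (SD, n = 2) in tips, or 1.78-fold higher in lung on the offset scale. The difference was -0.83 ± 0.33 with a 95% interval from -1.58 to -0.09. Its unadjusted p was 0.0326 and its limma adjusted p was 0.0861, so it did not pass the threshold of 0.05. It was -1.35 in experiment 1 and -0.31 in experiment 2: the RNA samples of a tissue differed by 0.48 in lung and 0.56 in tips, in opposite directions. Relative to the median of all tested probe sets the difference was -1.18. It lay below 0 under all 28 alternatives that were run. It passed with arrays centred on their medians, at -1.37 (limma adjusted p = 0.0284), and with the 8 arrays fitted singly and the RNA as a random block, at -0.83 (limma adjusted p = 0.0182). It also passed without the tip RNA of experiment 2, at -1.11 (limma adjusted p = 0.0209), a fit in which 3324 probe sets passed in place of 2106.

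The other probe sets of Pdgfra did not show this order. Probe set 160332_at, which was designed on an expressed sequence tag, read 1178.6 and 784.4 in lung of experiment 1 and 826.7 and 405.3 in lung of experiment 2. In tips it read 745.3 and 1468 in experiment 1 and 1360.3 and 722.5 in experiment 2. The tissues overlapped over most of their range, with 4 of 4 lung arrays and 2 of 4 tip arrays above background. The difference was 0.38 ± 0.41, with an interval from -0.54 to 1.29 (limma adjusted p = 0.499), and it was -0.11 with quantile normalization (limma adjusted p = 0.869).

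Probe set 161202_r_at, whose name marks probes picked under relaxed rules, was under background on all lung arrays, at 97.4 and 302.1 in experiment 1 and 150.3 and 229.5 in experiment 2. On tip arrays it read 1407.7 and 1736.6 in experiment 1 and 257.9 and 113.2 in experiment 2. Only the tip RNA of experiment 1 was above background. Without the filter, the difference was 1.16 ± 0.72 with an interval from -0.49 to 2.80 (limma adjusted p = 0.272). It was 2.36 in experiment 1 and -0.04 in experiment 2. With all values raised to at least the highest background it was 0.15 (limma adjusted p = 0.649). Without the tip RNA of experiment 1 the difference was -0.04 (limma adjusted p = 0.944), and without that of experiment 2 it was 2.35 (limma adjusted p = 0.0108), so the direction rested on which tip RNA was kept.

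The gap between the tested Pdgfra probe sets, 95079_at and 160332_at, was 1.21. Over the 896 genes with 2 or more tested probe sets, the median gap between the highest and lowest was 0.88, and 347 genes (38.7%) had probe sets of opposite sign. Which part of the transcript each Pdgfra probe set reads could not be looked up in the files used here.

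Pdgfrb, the receptor of pericytes, was under the filter at the 40th percentile and was called higher in tips in the fit without a filter, as it was with a filter at the 20th percentile (limma adjusted p = 0.0287). Its lung signal was 45.5 and 72.2 in experiment 1 and 23 and 236.6 in experiment 2. Its tip signal was 961.3 and 320 in experiment 1 and 359.3 and 977.2 in experiment 2. All lung values were under background, all tip values were above every lung value, and 2 of 4 tip arrays were above background.

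The difference of Pdgfrb was 1.67 ± 0.42 with a 95% interval from 0.72 to 2.63 (limma adjusted p = 0.0332), at 1.79 in experiment 1 and 1.55 in experiment 2. No lower limit for a fold is given, since 2 tip arrays were also under their own background. Background itself was higher on tip arrays: 18 of the 19 control probe sets were higher there, with a median difference of 0.63 and a highest of 1.64. Over the 3560 probe sets under background on all lung arrays, the median difference was 0.69, and 214 (6.01%) were called higher in tips.

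The call for Pdgfrb depended on the processing. It was lost with quantile normalization, where the difference was 1.23 (limma adjusted p = 0.0918), and with median centring, where it was 1.13 (limma adjusted p = 0.122). When all values under the second highest background were raised to it, an alternative chosen after the data were seen, the difference was 0.12 (limma adjusted p = 0.0816). At the highest background, 1244.2, the difference was 0.00. That outcome was fixed, since the highest Pdgfrb signal on any array was 977.2 and every value was raised to the floor. The call was lost without either lung RNA, at 1.52 without that of experiment 1 and 1.83 without that of experiment 2. It was kept without either tip RNA, at 1.71 without that of experiment 1 and 1.64 without that of experiment 2. Each of these fits left 1 RNA in a group. The call was also lost without any of 5 of the 8 single arrays, at differences between 1.36 and 1.98. These arrays were array 1 of lung in each experiment, both tip arrays of experiment 1 and array 2 of the tips of experiment 2. The difference was above 0 under 26 of 27 alternatives, the other being the one at the highest background.

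**Figure D2:**
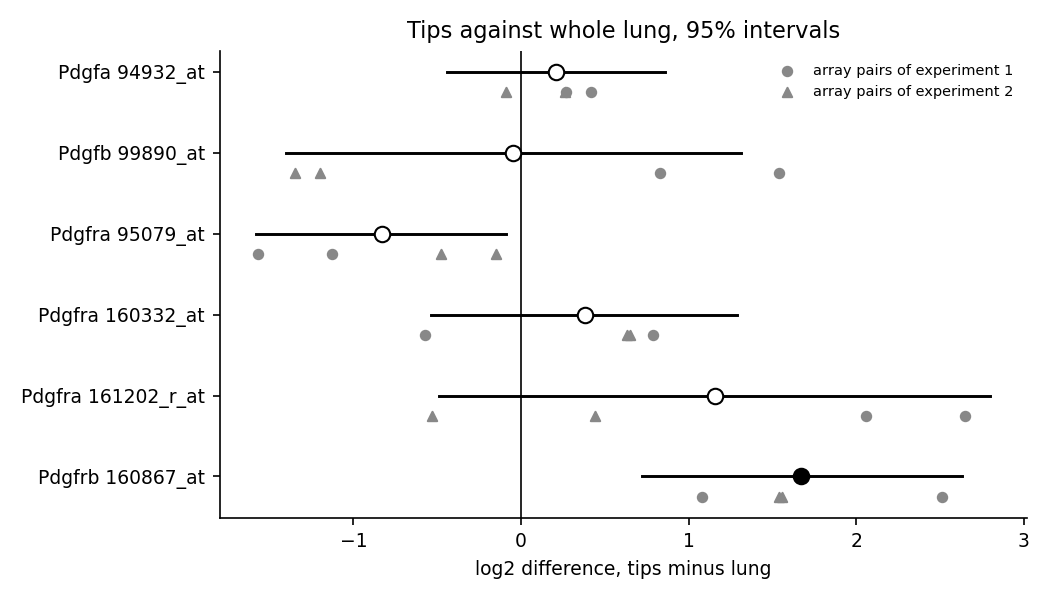
Log2 difference, tips minus lung, of each PDGF probe set (large circles, filled where the adjusted p was under 0.05; lines are 95% intervals) with the differences of the 4 array pairs below (circles experiment 1, triangles experiment 2). The 95079_at points of Pdgfra are all below 0 and those of Pdgfrb all above 0, while the pairs of Pdgfb split by experiment.

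Among the 3 PDGF probe sets that passed the filter, limma called 0 at an adjusted p under 0.05 and 1 of 3 had an unadjusted p under 0.05. Over all 7453 tested, 2106 (28.3%) were called and 3251 had an unadjusted p under 0.05. Without the filter, 1 of 6 was called, against 1755 of 12422 (14.1%). The signals of the tissues did not overlap for 2 of the 6, and for 4141 of 12422 (33.3%) of all probe sets, so the shares among PDGF probe sets were at or near those of the whole array, or under them. With 2 RNA samples per group, p-values measure the spread between these RNA samples and a spread pooled over probe sets. In whole tissue RNA, fewer cells of a type and less RNA per cell cannot be told apart.

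The genes around the receptors were described by each gene's brightest probe set. Over all 5642 genes tested in this way, 826 (14.6%) rose, 851 (15.1%) fell and the median difference was 0.31. Of the adaptors and enzymes that dock on activated PDGF receptors, 1 of 12 tested rose and 1 fell, with a median of -0.37. The scaffold gene Gab1 fell by 3.17 ± 0.38 (limma adjusted p = 0.0013). No tip array read it above background, and it was at least 4.3-fold higher in lung. Its second probe set, too dim to be tested, differed by 0.83. The related Gab2 rose by 1.88 ± 0.47 (limma adjusted p = 0.0188) from a level under background on every lung array, and was above background on 3 of 4 tip arrays. That call was lost under 9 of 27 alternatives. Among them were values raised to the second highest background, at 0.46 (limma adjusted p = 0.127), and quantile normalization, at 1.45 (limma adjusted p = 0.0536).

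Of the RAS, kinase and STAT genes downstream of the receptors, 3 of 11 rose and 3 fell, with a median of -0.23. The fallen genes were Sos2, which loads RAS with GTP, at -2.45 ± 0.31 (limma adjusted p = 0.0016), Nras, at -1.57 ± 0.41 (limma adjusted p = 0.0221), and Map2k1, a kinase that activates ERK, at -1.97 ± 0.40 (limma adjusted p = 0.00828). The call for Nras was lost with quantile normalization, at -1.26 (limma adjusted p = 0.0782). It was lost with the floors at the highest and second highest background (limma adjusted p = 0.0843 and 0.058), though the difference stayed at -1.57. It was also lost without either lung RNA, at -1.33 and -1.81. Without the tip RNA of experiment 1 the difference of Nras was -0.99. The call for Map2k1 was lost with the floor at the highest background, at -0.60 (limma adjusted p = 0.108), and without either lung RNA (limma adjusted p = 0.175 and 0.0912). Its second probe set, too dim to be tested, differed by 1.07. Map2k2, the other kinase that activates ERK, was named after its value was seen and rose by 1.08 ± 0.32 (limma adjusted p = 0.0352). The transcription factor gene Stat3 rose by 1.17 ± 0.30 (limma adjusted p = 0.0203), a call that median centring ended, at 0.63 (limma adjusted p = 0.193). Of the genes that growth factors induce early, 2 of 13 rose and 1 fell, with a median of 0.21. Jund rose by 2.25 ± 0.41 (limma adjusted p = 0.00571) and Ier2 by 0.92 ± 0.29 (limma adjusted p = 0.0436), while Fos fell by 1.42 ± 0.43 (limma adjusted p = 0.039). The call for Fos was lost under 11 of 28 alternatives, among them the fit without the filter (limma adjusted p = 0.0593), array 2 only, at -0.90 (limma adjusted p = 0.217), and without the lung RNA of experiment 1, at -0.87 (limma adjusted p = 0.392). The call for Ier2 was lost under 12 of 28 alternatives. Among them were median centring, at 0.38 (limma adjusted p = 0.43), the fit without the filter (limma adjusted p = 0.0581) and array 2 only, at 0.68 (limma adjusted p = 0.172). The medians of these 3 lists were on the same side of 0 with quantile normalization for the first and second, at -0.45 and -0.72, and turned for the early genes, at -0.20.

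A further list held proteases, matrix proteins and cell surface receptors, of which some but not all process or bind PDGF. Of these, 4 of 11 rose and 0 fell by the limma threshold, with a median of 0.71. At an unadjusted p under 0.05 limma gave 5 higher and 0 lower. Plat, the tissue plasminogen activator that can cleave latent PDGF-C, rose by 2.26 ± 0.33 (limma adjusted p = 0.00255). The endocytic receptor gene Lrp1, whose product associates with the beta receptor, rose by 1.97 ± 0.42 (limma adjusted p = 0.0105). Ddr1, a collagen receptor, rose by 1.33 ± 0.43 (limma adjusted p = 0.0485), but this call was lost under 19 of 28 alternatives. Among them were quantile normalization, at 1.01 (limma adjusted p = 0.135), and the fit without the filter (limma adjusted p = 0.0732). The co-receptor gene Nrp1 rose on its brightest probe set by 1.77 ± 0.44 (limma adjusted p = 0.0186), and its second probe set fell by 1.60 (limma adjusted p = 0.0182), so no direction can be given for the gene. With the mean over each gene's probe sets in place of the brightest, the median of this list was 0.42. Furin, which cleaves the PDGF-A and PDGF-B precursors, was named after its value was seen and differed by -0.17 ± 0.29 (limma adjusted p = 0.673).

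Of the related receptor kinases and their ligands, 4 of 13 rose and 2 fell, with a median of 0.61. The kit ligand gene Kitl fell by 3.46 ± 0.29 (limma adjusted p = 0.000941). Vegfa rose by 1.58 ± 0.39 (limma adjusted p = 0.0188), Vegfb by 1.27 ± 0.35 (limma adjusted p = 0.0264) and Flt3 by 1.26 ± 0.33 (limma adjusted p = 0.0216). With quantile normalization 0 of the 13 rose by the limma threshold and 2 fell: Vegfa was then at 1.09 (limma adjusted p = 0.0828), Vegfb at 1.04 (limma adjusted p = 0.0663) and Flt3 at 1.06 (limma adjusted p = 0.057). The second Flt3 probe set differed by -0.31. With the mean over each gene's probe sets, the median of this list was 0.05.

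**Figure D3:**
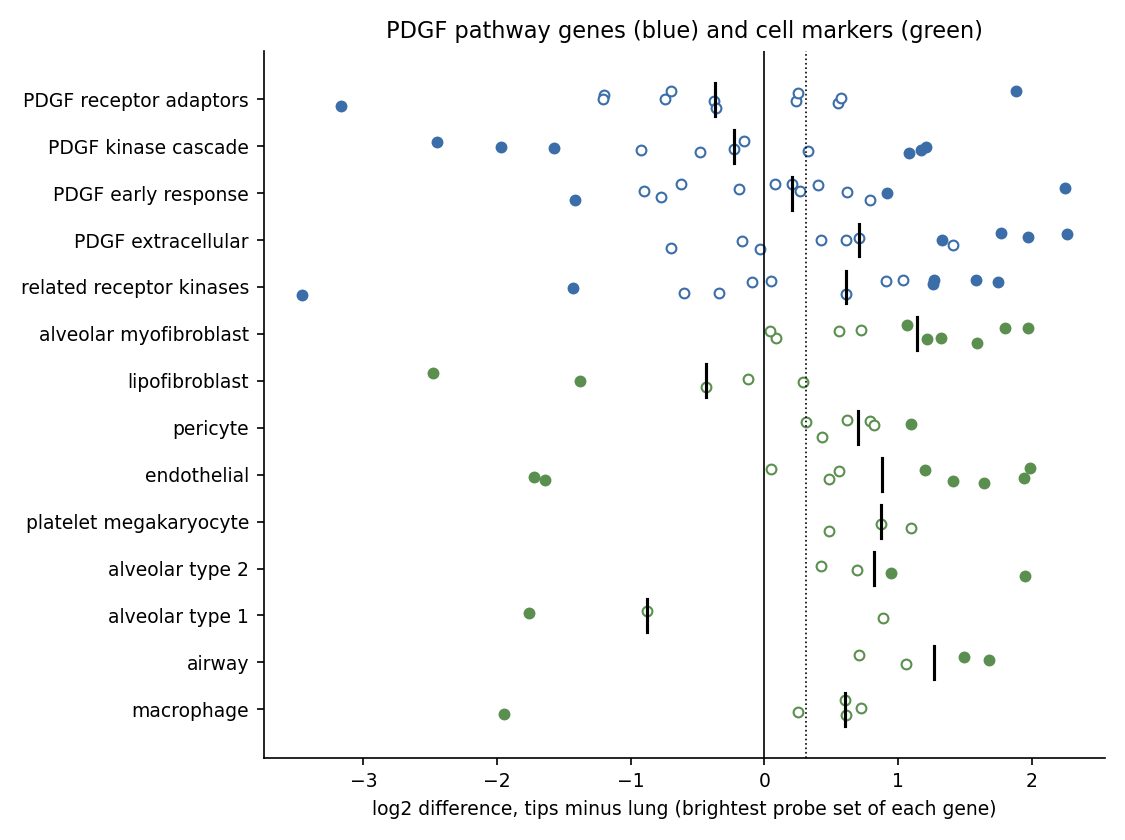
Log2 difference, tips minus lung, of each tested gene's brightest probe set in the PDGF pathway lists (blue) and cell marker lists (green); filled points had an adjusted p under 0.05, black bars are list medians, the solid line is 0 and the dotted line the median of all genes. Most myofibroblast and endothelial markers lie to the right of the dotted line, and the adaptor and kinase medians lie to the left of 0.

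The cells in which PDGF receptors are known to act were read from marker lists. Of the alveolar myofibroblast markers, 6 of 10 rose and 0 fell by limma, with a median of 1.14, and an unadjusted p under 0.05 gave the same counts of 6 and 0. Their summed signal was 61471 to 113953 in lung and 86551 to 209659 in tips. The enteric smooth muscle actin gene Actg2 rose by 1.59 ± 0.28 (limma adjusted p = 0.00524). The brightest defining markers did not pass: Eln, the elastin gene, differed by 0.72 (limma adjusted p = 0.356) and Acta2, smooth muscle actin, by 0.09 (limma adjusted p = 0.89). The count of risen myofibroblast markers was 5 with quantile normalization and 2 with median centring. Of the lipofibroblast markers, which label a further PDGF receptor alpha lineage, 0 of 5 tested rose and 2 fell by limma, also at an unadjusted p under 0.05, with a median of -0.44. Their summed signal was 41488 to 56294 in lung and 15797 to 24897 in tips, without overlap. Most of that sum was Limch1, at 33500 ± 8650 in lung and 12700 ± 1660 in tips, and Lpl, lipoprotein lipase, at 8450 ± 161 in lung and 1530 ± 486 in tips (SD, n = 2), which were the called genes. The second tested probe set of each did not pass, at -0.82 for Limch1 (limma adjusted p = 0.286) and -0.38 for Lpl (limma adjusted p = 0.532). The other tested markers were Cd36 at -0.44, Plin2 at 0.29 and Tcf21 at -0.12. With quantile normalization 1 of the 5 fell, and with the floor at the highest background the list median was 0.05. These genes were named after their values were seen.

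Of the pericyte markers, 1 of 6 rose and 0 fell by limma, with a median of 0.70, and at an unadjusted p under 0.05 there were 2 higher and 0 lower. Their summed signal was 5356 to 8201 on lung arrays and 10364 to 12946 on tip arrays, without overlap. The endothelial, alveolar type 2, airway and platelet sums given below did not overlap either, nor did the alveolar type 1 sums, which were lower in tips. The pericyte sum holds dim genes: Abcc9 was above background on 1 lung and 1 tip array, and Angpt1 on 0 lung and 2 tip arrays. The part of the higher background of tip arrays in this sum was not tested. With quantile normalization the median of the pericyte markers was 0.21. Des, the desmin gene, rose by 1.10 ± 0.35 (limma adjusted p = 0.0439). Its call was lost under 15 of 28 alternatives, among them quantile normalization, at 0.68 (limma adjusted p = 0.205). Notch3, a receptor of mural cells, differed by 0.79 ± 0.32 (limma adjusted p = 0.0931) and Mcam by 0.31 (limma adjusted p = 0.528).

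Of the endothelial markers, 5 of 10 rose and 2 fell, with a median of 0.88, and their summed signal was 112261 to 158435 in lung and 377345 to 388455 in tips. Eng, the TGF-beta co-receptor endoglin, rose by 1.99 ± 0.50 (limma adjusted p = 0.0201) and Tie1, an endothelial receptor kinase, by 1.94 ± 0.39 (limma adjusted p = 0.00835). Eng provided most of that sum, at 77500 ± 17100 in lung and 299000 ± 16700 in tips (SD, n = 2). The fallen markers, named after their values were seen, were Tek, the sister receptor of Tie1, at -1.72 ± 0.29 (limma adjusted p = 0.00436) and the sialomucin gene Emcn at -1.64 ± 0.30 (limma adjusted p = 0.00591). Cdh5, the endothelial cadherin gene, differed by 0.48 (limma adjusted p = 0.231). Pdgfb, which endothelium makes, was at or near background in both tissues, as given above.

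Of the epithelial lists, alveolar type 2 markers rose for 2 of 4 tested and fell for 0 (median 0.82, summed signal 24625 to 41065 in lung and 104455 to 119615 in tips). Alveolar type 1 markers rose for 0 of 3 and fell for 1 (median -0.88, 70271 to 81953 in lung and 33929 to 45280 in tips). With quantile normalization 1 of these rose and 1 fell, with a median of -0.13, and with cyclic loess the median was -0.07. Most of the sum was Hopx, which differed by -1.76, and Cav1, which differed by -0.88, whereas Ager differed by 0.89. These type 1 genes were named after their values were seen. Airway markers rose for 2 of 4 and fell for 0 (median 1.27, 15020 to 25098 in lung and 34617 to 85547 in tips). Platelet and megakaryocyte markers, for a further source of PDGF, were called for 0 of 3 by limma (median 0.87, 1513 to 1803 in lung and 2571 to 4212 in tips). Macrophage markers rose for 0 of 5 and fell for 1 (median 0.60, 20641 to 25246 in lung and 24750 to 33776 in tips). At an unadjusted p under 0.05, limma gave 2 higher and 0 lower alveolar type 2 markers, 1 higher and 2 lower type 1 markers, 3 higher and 0 lower airway markers, 1 higher and 0 lower platelet markers, and 0 higher and 1 lower macrophage markers. The part of these other cell types in the values of the PDGF genes was not tested.

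The probe sets with the pattern most like each gene over the 8 arrays, which come from only 4 RNA samples, were found by Pearson correlation of log2 values. For Pdgfa they were Rrp7a (r = 0.973), Pdia4 (r = 0.972) and Actn3 (r = 0.968), which with quantile normalization had r of 0.761, 0.802 and 0.349. For Pdgfb they were Nol7 (r = 0.971), Pkn2 (r = 0.949) and Tprgl (r = 0.944). For probe set 95079_at of Pdgfra they were Gpam (r = 0.99, but 0.642 with quantile normalization), Sec23a (r = 0.981) and Bub3 (r = 0.981). For Pdgfrb they were H13 (r = 0.978), Hoxb8 (r = 0.976) and Inpp5k (r = 0.972). The arrays of an RNA share that RNA and all arrays share 1 scaling, and the values are a description only.

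**Figure D4:**
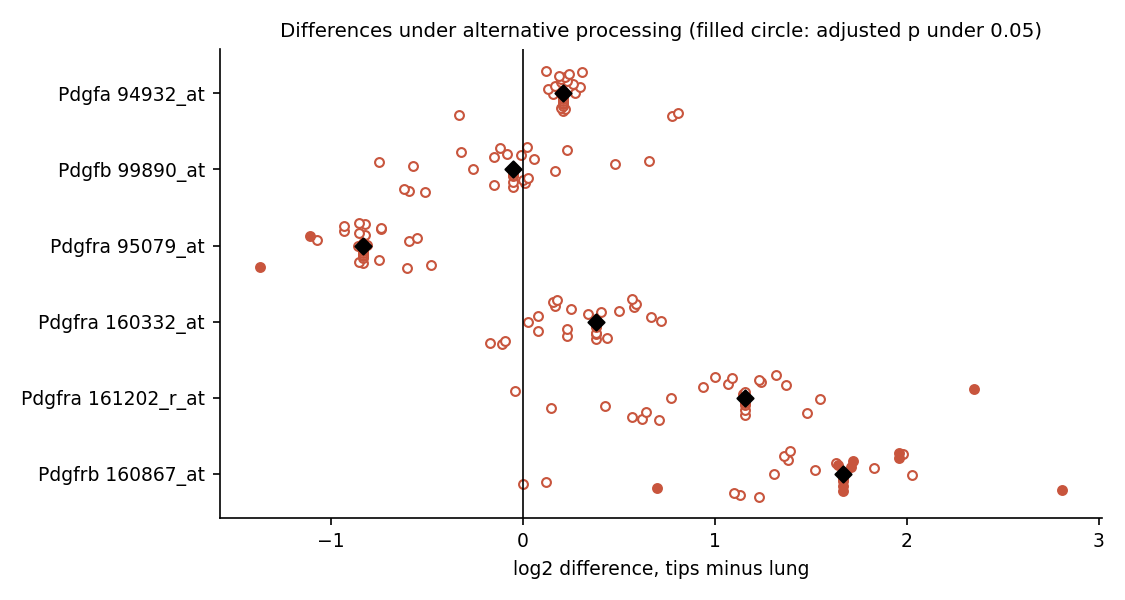
Log2 difference, tips minus lung, of each PDGF probe set as reported (black diamonds) and under each alternative processing or left-out sample (circles, filled where the adjusted p was under 0.05). Values of 95079_at of Pdgfra stay below 0 and those of Pdgfb fall on both sides of 0. Those of Pdgfrb spread from 0.00, given by a floor above all its signals, to 2.81.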

How the data were processed

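The deposited values are intensities, 1 signal per probe set, which the authors computed with MAS5, per the submitters' processing notes. The version and genome build are not given in the sources used here, and detection calls were not used. From the values, every array had been scaled to 1 trimmed mean (1501.1 to 1501.2 in lung and 1500.6 to 1500.7 in tips, with 2% left out at each end). Probe sets were named by the platform annotation where it gave 1 symbol (10855 of 12488), updated by gene ID. Arrays were set to a trimmed mean of 1500.9, an offset of 150.1 (10%) was added and log2 taken. The 66 control probe sets and probe sets under the 40th percentile of mean level were left out. Arrays of an RNA were averaged, and limma 3.58.1 in R 4.3.3 (lmFit, eBayes with an intensity trend) compared 2 with 2 RNA samples, with Benjamini-Hochberg adjustment over all probe sets tested and a threshold of 0.05. There were 2 residual and 7.05 prior degrees of freedom. Few arrays limit the precision, and the standard error had a median of 0.397. Where all arrays of a group were under background and all of the other above it, the fold is a lower limit against the higher of background and the measured signal on each array. The procedure was tested in 20 simulations of 7453 probe sets, with 200 changed. It recovered 14.6% of changes of log2 size 1, 83.1% of size 2 and 99% of size 3. Of its calls, 7.82% were false, a higher share than the threshold of 0.05 sets.

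The experiment number marks shared processing in the design text and so pairs the RNA samples; deviations of same-numbered samples correlated at 0.0452. Alternatives changed the scaling, the offset, the filter, a floor, the block and the arrays used, and left out each RNA and each array. Members and gene lists were chosen with earlier results of these data known. Named were every member probe set, up to 4 called genes of each pathway list by smallest p, the 3 brightest myofibroblast, pericyte and endothelial markers, and the 3 probe sets most correlated with each member.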

Additional observations from a re-analysis of the deposited data

How the results depend on the processing

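Values are log2 differences, tips minus lung. There were 4 RNA samples, and Pdgfb, Pdgfrb and probe set 161202_r_at of Pdgfra were mostly under background. Differences near 1 were called for some genes, such as Ier2 at 0.92, and not for others, such as Flt1 at 0.91. With the experiment as a block (paired), 2452 probe sets passed in place of 2106, 95079_at of Pdgfra had a limma adjusted p of 0.0636 and Pdgfrb of 0.0291, and no member's call changed. For 160332_at of Pdgfra the direction turned with quantile normalization (-0.11), median centring (-0.17) and cyclic loess (-0.09), and ranged from 0.08 to 0.67 with an RNA or array left out. For 161202_r_at of Pdgfra that range was -0.04 to 2.35. Pdgfa turned with median centring (-0.33) and ranged from 0.12 to 0.31 with a sample left out. For 95079_at of Pdgfra the call was gained with median centring (-1.37) and with the RNA as a random block (-0.83), and left-out samples gave -1.11 to -0.55. Pdgfb turned with an offset of 50 percent (0.01), the floor at the second highest background (0.03) and array 1 of each RNA only (0.17), and ranged from -0.75 to 0.66 with a sample left out. Pdgfrb lost its call with quantile normalization (1.23), median centring (1.13), cyclic loess (1.10), array 1 only (2.03) and array 2 only (1.31). It also lost its call with the floors at the highest (0.00, fixed since all its signals lay under that floor) and second highest background (0.12). It ranged from 1.36 to 1.98 with a sample left out. The cause of these changes was not tested.

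The count of PDGF probe sets called was 1 with median centring, without the filter, with a filter at the 20th percentile and with the RNA as a random block, and 0 to 1 with a sample left out. Of the genes in the pathway lists 21 were called, against 8 with the floor at the highest background, 13 with array 1 only, 12 with array 2 only and 4 to 28 with a sample left out, lowest without the lung RNA of experiment 1. Of all probe sets 2106 were called, against 826 with that floor, 1229 with array 1 only and 349 to 3324 with a sample left out. A group left with 1 RNA is assumed to vary like the other. Among marker genes, Acta2 turned with median centring (-0.45), array 2 only (-0.07) and left-out samples (-0.50 to 0.67), and Eln with left-out samples (-0.05 to 1.49). Mcam turned with quantile normalization (-0.12), median centring (-0.23), cyclic loess (-0.07) and array 2 only (-0.08), and Cdh5 with median centring (-0.06).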
